A study of Mus musculus with 15 samples.

Results

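The difference between the hippocampi of Tg2576 and wild-type (WT) mice was measured over both treatments of the study. All 15 mice of the series entered 1 model with a term for treatment and a term for genotype, so that 7 Tg2576 mice were set against 8 WT mice. Tg2576 mice carry a human amyloid precursor protein gene with the Swedish mutation under the prion protein promoter, and they develop amyloid plaques with age. The mice were females aged 18 to 20 months, and the WT mice were the transgene-negative littermates. There were 4 Tg2576 mice and 4 WT mice on vehicle, which was sesame oil, and 3 Tg2576 mice and 4 WT mice on docosahexaenoic acid (DHA). DHA was given daily into the stomach at 450 mg/kg for 5 weeks. The sample labels write the transgenic genotype as Tg2576 +/+. The transgene is active in neurons of many brain regions, so it is no model of a change confined to the hippocampus.

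Plaques draw microglia, the resident macrophages of the brain, which then raise genes of lysosomes, lipid handling and phagocytosis. Astrocytes near plaques become reactive and raise intermediate filament genes. Cholesterol is made within the brain, and its synthesis genes are switched together by sterol-sensing transcription factors. In bulk tissue, fewer cells of a type and less RNA per cell cannot be told apart.

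Totals over the 15 libraries lay between 17372864 and 46596489 counts (median 25645977). Of 55401 genes, 18708 had enough counts to be tested. Levels are given as CPM, counts scaled to a common library size, after TMM scaling, which corrects library sizes for composition. Differences are log2 fold changes of Tg2576 against WT from the quasi-likelihood fit of edgeR, with their standard errors (SE). A gene is said to have risen or fallen at a Benjamini-Hochberg adjusted p under 0.05 over all genes tested, and counts at an unadjusted p under 0.01, the threshold of the study's methods, are given beside. The libraries differed in choroid plexus, the tissue that makes cerebrospinal fluid. The summed level of its 12 markers spanned 218.5 to 7001 CPM in the WT and 323.7 to 6517 CPM in the Tg2576 group, and all 3 Tg2576 DHA mice were at 4245 CPM or above. A fit with this level as a covariate, added after the values were seen, is given with the counts.

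At an adjusted p under 0.05, 46 genes differed by genotype (0.246% of those tested), of which 34 rose (0.182%) and 12 fell (0.0641%) in Tg2576 mice. At an unadjusted p under 0.01 there were 723 genes (3.86%), with 430 higher (2.3%) and 293 lower (1.57%), where 187 genes pass by chance. At an adjusted p under 0.1 there were 137 genes (0.732%). The treatment term of the same fit gave 161 genes at p under 0.01 and 0 at an adjusted p under 0.05. The genes that rose moved further than those that fell, with a median log2 fold change of 0.85 against -0.35. They were also less abundant, with a median of 3.73 against 9.12 CPM per kilobase of exon. Smaller changes can be called in more abundant genes, and the part of this in the contrast was not tested. For 68 genes (0.363%) the 7 Tg2576 values and the 8 WT values did not overlap, and 26 of the 46 genes were among them. The count of 46 rests on many genes close to the threshold. It ranged from 5 to 100 with 1 mouse left out, and was 5 with the choroid plexus level as a covariate. The number of lower calls was 0 with that covariate, 3 with an offset for GC content and 0 to 21 with 1 mouse left out, where that of the higher calls was 5, 28 and 5 to 79. App, Cst7, Gfap, Aspg and Cd68 had an adjusted p under 0.05 in all 15 fits that left out 1 mouse.

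App, the gene of the amyloid precursor protein (ENSMUSG00000022892.11, GRCm38 chromosome 16, 84949685 to 85173766), had the lowest p of all genes tested. Among WT mice its level spanned 1550 to 1768 CPM with a median of 1645 CPM, and among Tg2576 mice 2080 to 2792 CPM with a median of 2390 CPM. Every Tg2576 mouse was above every WT mouse, as the labels of the libraries call for. The means were 1665 ± 78.1 CPM (SD, n = 8) and 2440 ± 236 CPM (SD, n = 7). The rise was 0.55 on the log2 scale (SE 0.063, adjusted p = 0.0012, 1.47-fold). Reads of the human transgene and of mouse App cannot be told apart in these counts, which hold mouse genes only. The exact permutation test, with genotypes exchanged within each treatment, gave p = 0.000408, the smallest it can give over 2450 arrangements.

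Prnp, the mouse gene of the prion protein, had 967 ± 49.4 CPM (SD, n = 8) in WT and 1022 ± 42.0 CPM (SD, n = 7) in Tg2576 mice, a difference of 0.08 (adjusted p = 0.597). Of the 17 genes of APP processing, App alone passed an adjusted p of 0.05. Sorl1, a receptor that sorts APP within the cell, was lower at p under 0.01, with a difference of -0.27 (adjusted p = 0.237). The secretase genes Bace1 (-0.14, adjusted p = 0.506) and Adam10 (-0.08, adjusted p = 0.85) did not pass.

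**Figure D1:**
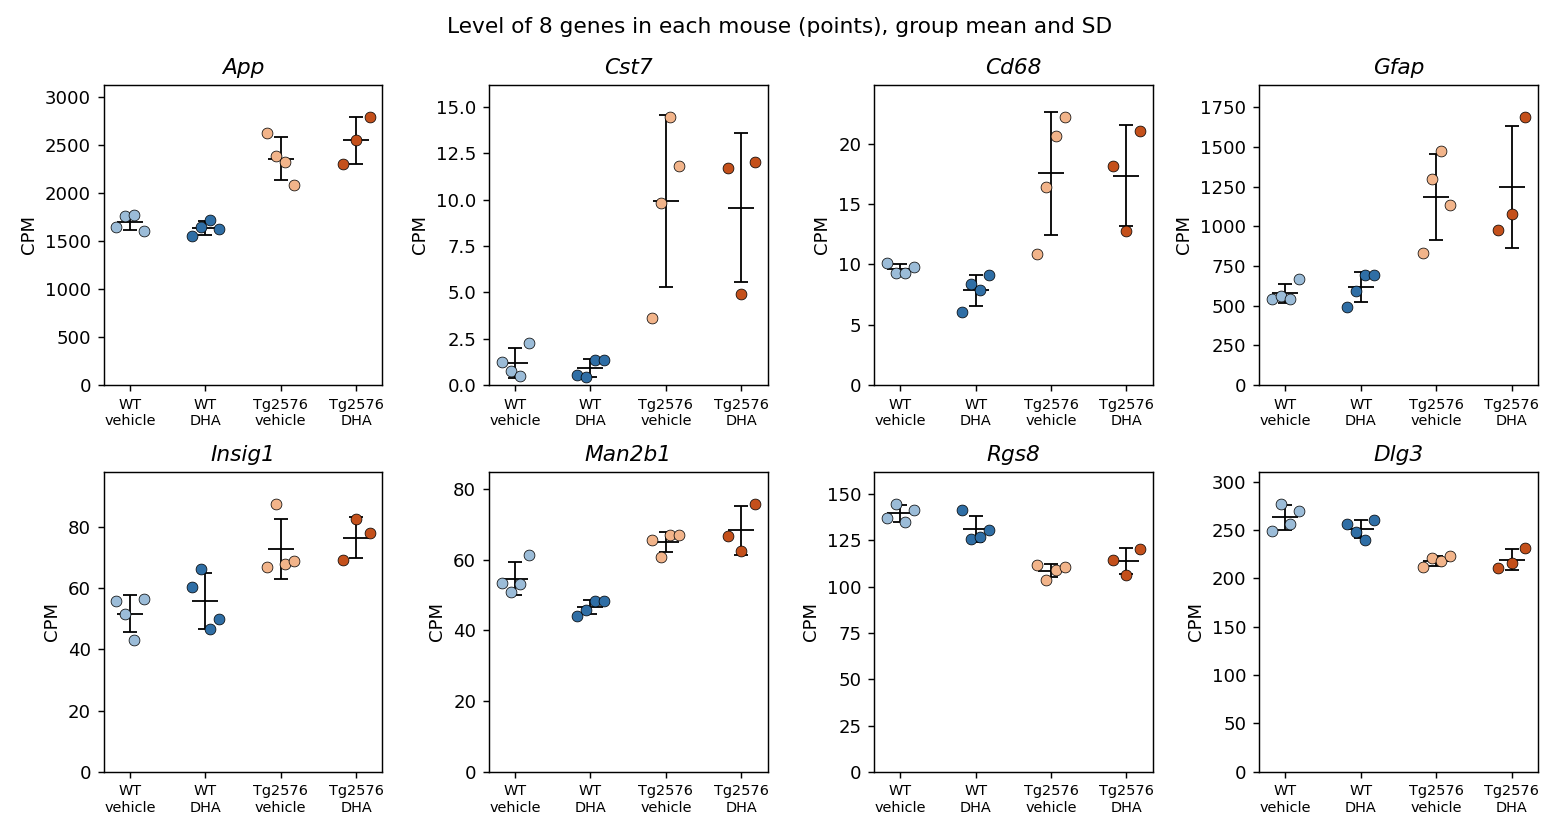
Level in CPM (vertical axes, from 0) of 8 genes in each mouse, by genotype and treatment (horizontal axes); points are mice and bars are the group mean with its SD. For App, Cst7, Cd68, Gfap and Insig1 all 7 Tg2576 mice lie above all 8 WT mice, and for Rgs8 and Dlg3 they lie below.

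Of 27 genes of plaque-associated microglia, 15 were higher in Tg2576 mice at p under 0.01 and 4 rose at an adjusted p under 0.05, namely Cst7, Cd68, Cd52 and Lilrb4a. None was lower at p under 0.01. Over all genes tested, 2.3% were higher and 1.57% lower at this threshold, and each list count below stands beside these shares. The median log2 fold change of the list was 0.54, beside 0.01 over all genes tested. Cst7, the gene of the cysteine protease inhibitor cystatin F, had the largest rise of the genes tested. The WT values spanned 0.453 to 2.28 CPM (median 1.004) and the Tg2576 values 3.59 to 14.4 CPM (median 11.7), without overlap. The rise was 3.20 (SE 0.373, adjusted p = 0.00204), which is 9.19-fold. Among the Tg2576 mice, vehicle replicate 1 (3.59 CPM) and DHA replicate 2 (4.92 CPM) were the lowest.

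Cd68, a lysosomal protein of phagocytes, ran from 6.07 to 10.1 CPM (median 9.18) in WT and from 10.8 to 22.2 CPM (median 18.2) in Tg2576 mice. It rose by 0.99 (SE 0.144, adjusted p = 0.00704). Lilrb4a, an inhibitory receptor of myeloid cells, ran from 0.0965 to 0.813 CPM in WT and from 1.04 to 2.02 CPM in Tg2576 mice and rose by 1.47 (adjusted p = 0.0425). Neither gene overlapped between genotypes. Trem2, the lipid-sensing receptor of microglia, and its signalling partner Tyrobp were higher by 0.97 (adjusted p = 0.205) and 0.90 (adjusted p = 0.0671). In Trem2 the genotypes overlapped. Tg2576 vehicle replicate 1 stood at 8.89 CPM, under the lowest WT mouse at 9.46 CPM. Tg2576 DHA replicate 2, at 13.65 CPM, lay within the WT range, which reached 21.48 CPM. Apoe, the main lipid carrier of the brain, was at 2344 ± 401 CPM (SD, n = 8) in WT and 2575 ± 209 CPM (SD, n = 7) in Tg2576 mice, a difference of 0.14 (adjusted p = 0.607).

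Of 13 general microglial and myeloid genes, 10 were higher at p under 0.01, and all 13 differences were positive (median 0.61). Ptprc, the leukocyte phosphatase CD45, rose by 0.86 (SE 0.174, adjusted p = 0.0479), from 3.27 ± 0.763 CPM (SD, n = 8) to 5.95 ± 1.11 CPM (SD, n = 7). Spi1, the myeloid transcription factor PU.1, was higher by 0.71 (adjusted p = 0.0505) and Laptm5, a lysosomal membrane protein of blood cells, by 0.60 (adjusted p = 0.0512). Outside these lists, Plek, an actin regulator of blood cells (0.61, adjusted p = 0.0383), Mpeg1, a pore-forming protein of macrophages (0.90, adjusted p = 0.0383), and Hcar2, the receptor for niacin and ketone bodies (1.88, adjusted p = 0.0383), rose as well. Hcar2 had few reads, at 0.0868 to 0.572 CPM in WT and 0.592 to 1.86 CPM in Tg2576 mice. Havcr2, the immune checkpoint receptor TIM-3, rose by 0.70 (adjusted p = 0.0383), without overlap between genotypes.

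Homeostatic microglial genes, which mark the resting state, moved less than the 2 lists above, though 15 of 16 differences were positive (median 0.28). Of 16, 3 were higher at p under 0.01 (among them Gpr34 and Csf1r) and none passed the adjusted threshold. By treatment, 0 were higher at p under 0.01 under vehicle (median 0.147) and 6 under DHA (median 0.446). Of all genes tested, 1.37% and 1.19% were. For the interaction of genotype and treatment itself, 1 of the 16 had p under 0.01 in edgeR. Tmem119 was at 29.8 ± 4.005 CPM (SD, n = 8) in WT and 31.1 ± 4.59 CPM (SD, n = 7) in Tg2576 mice. P2ry12, a purine receptor of microglial processes, differed by 0.25 (adjusted p = 0.49). Over all genes tested, no gene passed an adjusted p of 0.05 for the interaction, beside 157 genes (0.839%) at p under 0.01 and 978 (5.23%) at p under 0.05 in edgeR.

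Complement genes encode proteins that tag material for removal and the receptors that read the tags. Of 14, 9 were higher at p under 0.01 and C3ar1 and Serping1 rose at the adjusted threshold. C3ar1, the receptor for the C3a fragment, ran from 0.868 to 2.70 CPM in WT and from 3.27 to 5.59 CPM in Tg2576 mice and rose by 1.05 (SE 0.199, adjusted p = 0.0383). Serping1, the inhibitor of the C1 proteases, rose by 0.74 (adjusted p = 0.0383). C1s1, a protease of the C1 complex that stood outside the list, rose by 1.20 (adjusted p = 0.0383). The C1q chains C1qa, C1qb and C1qc differed by 0.57, 0.59 and 0.64, with adjusted p values of 0.104, 0.199 and 0.0523.

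Of 12 cytokine and chemokine genes tested, 4 were higher and 1 was lower at p under 0.01, and none passed the adjusted threshold. Tnf, Il6 and Ccl2 had too few counts to be tested. Il1b ran from 0.129 to 0.381 CPM in WT and from 0.433 to 0.937 CPM in Tg2576 mice, without overlap (1.21, adjusted p = 0.118). Cx3cl1, the chemokine that neurons present to microglia, was lower by -0.21 (adjusted p = 0.202). Socs3, a brake on cytokine signalling, rose by 0.92 (adjusted p = 0.0383). For interferon-stimulated genes 2 of 20 and for antigen presentation 2 of 18 were higher at p under 0.01, with none past the adjusted threshold. Of all genes tested, 2.3% were higher at p under 0.01. In these lists 17 of 20 and 17 of 18 differences were positive. The medians were 0.39 and 0.48, beside 0.01 over all genes tested.

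All 20 reactive astrocyte genes had a positive difference (median 0.57). Of these, 11 had p under 0.01 and 6 rose at the adjusted threshold, namely Gfap, Aspg, Vim, S100a6, Ggta1 and Lcn2. Gfap, the main intermediate filament of astrocytes, ran from 492.7 to 692.8 CPM (median 575) in WT and from 834 to 1689 CPM (median 1137) in Tg2576 mice, without overlap. It rose by 1.03 (SE 0.129, adjusted p = 0.0021, 2.04-fold). Vim, the filament gene vimentin, went from 49.8 ± 12.97 CPM (SD, n = 8) to 88.9 ± 9.55 CPM (SD, n = 7) and rose by 0.83 (adjusted p = 0.0383). Aspg, an asparaginase, rose by 1.10 (adjusted p = 0.00377) and Lcn2, the iron-siderophore carrier lipocalin 2, by 1.69 (adjusted p = 0.0484).

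By contrast, none of 11 homeostatic astrocyte genes had p under 0.01 in edgeR, and their median was -0.02. In that list Gjb6, a gap junction protein, and Kcnj10, a potassium channel, had p under 0.05 with opposite signs (0.21 and -0.18).

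**Figure D2:**
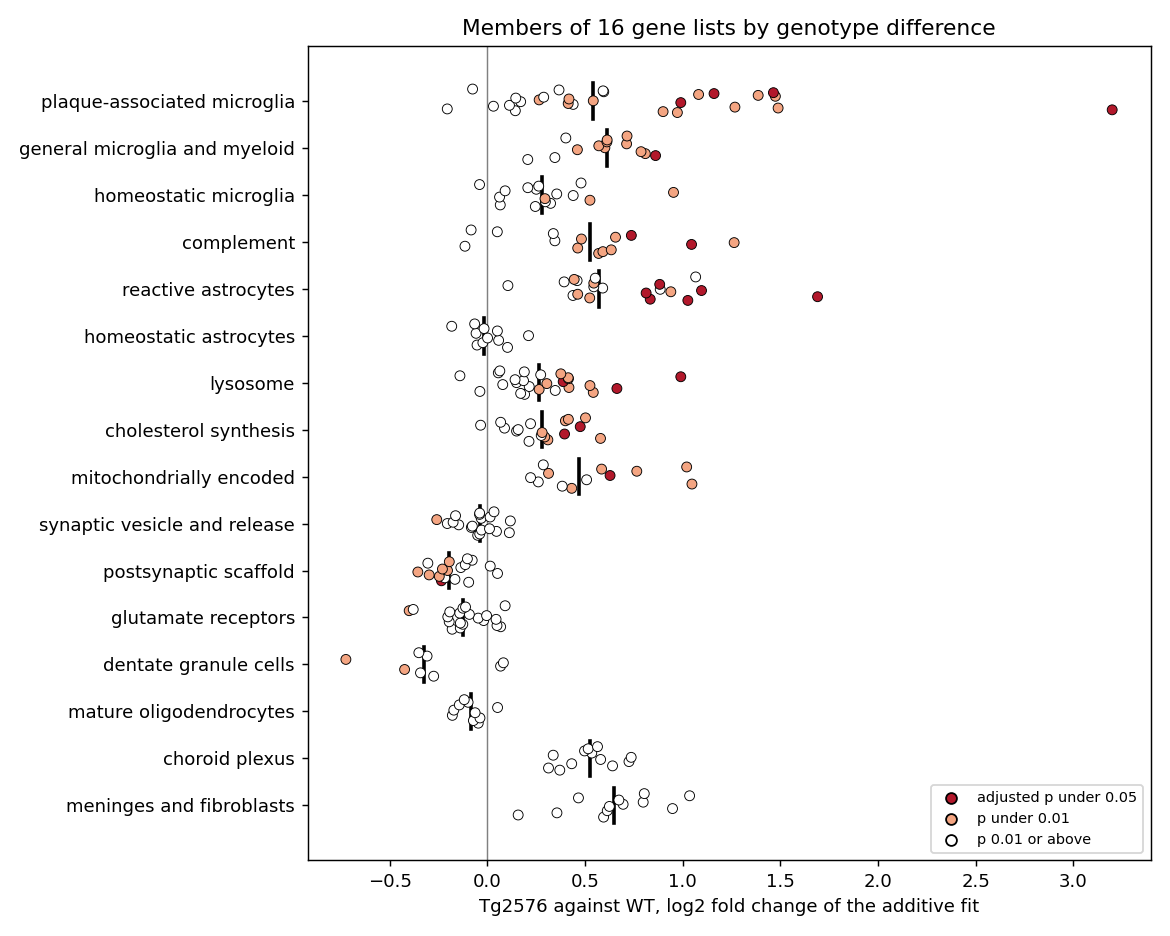
Log2 fold change of Tg2576 against WT mice (horizontal axis) for each tested member (points) of 16 gene lists (vertical axis); black bars are list medians and colours give the call. The medians of the microglial, complement and reactive astrocyte lists lie between 0.28 and 0.61, that of the postsynaptic list at -0.19, and the choroid plexus and meningeal lists are positive with no member at p under 0.01.

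Lysosomal genes encode the enzymes and membrane proteins that break down engulfed material. Of 25, 11 were higher at p under 0.01 and none was lower (median 0.27). Cd68, Man2b1 and Ctss rose at the adjusted threshold. Cd68, Ctsd, Ctsl, Ctsz and Cd63, among others, also belong to the microglial lists, so these counts are not independent. Man2b1, the lysosomal alpha-mannosidase, ran from 44.2 to 61.4 CPM in WT and from 60.7 to 75.8 CPM in Tg2576 mice, and rose by 0.39 (SE 0.0689, adjusted p = 0.0383). Ctss, the protease cathepsin S of antigen-presenting cells, rose by 0.66 (adjusted p = 0.0393). Grn, whose product progranulin is needed for lysosome function, was higher by 0.38 (adjusted p = 0.0512). Ctsd, the protease cathepsin D, ran from 167.9 to 243.6 CPM in WT and from 200.5 to 397.4 CPM in Tg2576 mice (0.54, adjusted p = 0.08). With the choroid plexus level as a covariate, 7 lysosomal genes had p under 0.01.

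Of 17 genes of cholesterol synthesis and uptake, 9 were higher at p under 0.01 and none was lower (median 0.28). Insig1 and Fdft1 rose at the adjusted threshold. Insig1, which holds the sterol sensor in the endoplasmic reticulum, ran from 43.1 to 66.2 CPM (median 53.7) in WT and from 66.9 to 87.6 CPM (median 69.2) in Tg2576 mice, without overlap. It rose by 0.48 (SE 0.0883, adjusted p = 0.0383, 1.39-fold). Fdft1, the squalene synthase, went from 89.8 ± 10.5 CPM (SD, n = 8) to 117 ± 13.6 CPM (SD, n = 7), a rise of 0.40 (adjusted p = 0.0425). Msmo1 and Lss, enzymes late in the pathway, were higher by 0.40 (adjusted p = 0.118) and 0.28 (adjusted p = 0.219).

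Promoters were searched because cholesterol and lysosomal genes moved as groups. The sequences came from RefSeq (GRCm38.p6) and covered the 250 bases before each start. On both strands, 14 motifs were searched in 7 of the gene lists and the 34 genes that rose, and the motifs described were picked after all counts had been seen. They were CCAAT, the lysosomal E-box CACGTGAC with its palindrome TCACGTGA and its full CLEAR element, and the sterol response motif CACCCCAC with its core CACCCCA and its full element. For myeloid factors they were GAGGAAGT with the nested AGGAAGT and the shifted GGAAGTG, and for other factors TTCCTCTT and TTCCNGGAA, the AP-1 site TGACTCA and an NF-kappaB site. Forms of 1 motif overlap each other. The shares of all tested genes that held the other motifs ranged from 0.0629% to 12.1%. CCAAT stood in the promoter of all 11 cholesterol genes that had one in the table, and in 39.5% of the promoters of 12714 tested genes. CACGTGAC stood in 6 of 19 lysosomal promoters (31.6%) and in 3.47% of all. Its lysosomal carriers were Ctsa, Ctsd, Glb1, Naglu, Lamp1 and Lgmn, none of which rose at the adjusted threshold. The full CLEAR element stood in 0 of 19 lysosomal promoters and in 0.48% of all. Among the 22 of the 34 risen genes with a promoter in the table, CCAAT stood in 8 (36.4%) and CACGTGAC in 1 (4.55%). Both shares were near those of all genes. CACCCCAC, a sterol response motif, stood in 1 of the 11 cholesterol promoters. With the 50 bases after the start included, the list counts were again 11 and 6, beside 42% and 4.22% of all. These matches describe letters in a window and not bound sites. The promoters of Insig1, Msmo1, Lss and Ctsd are shown because they carry the motifs of both lists, 5′ to 3′ on the strand of the gene, with CCAAT or its reverse complement in capitals in the first 3 and CACGTGAC in capitals in the last.
Insig1 (chr5:28071162-28071411, plus strand): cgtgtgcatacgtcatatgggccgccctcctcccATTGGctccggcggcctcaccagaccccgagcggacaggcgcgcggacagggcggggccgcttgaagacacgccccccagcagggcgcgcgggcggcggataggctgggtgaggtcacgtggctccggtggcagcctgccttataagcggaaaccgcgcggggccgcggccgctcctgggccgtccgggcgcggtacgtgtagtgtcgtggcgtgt
Msmo1 (chr8:64733579-64733828, minus strand): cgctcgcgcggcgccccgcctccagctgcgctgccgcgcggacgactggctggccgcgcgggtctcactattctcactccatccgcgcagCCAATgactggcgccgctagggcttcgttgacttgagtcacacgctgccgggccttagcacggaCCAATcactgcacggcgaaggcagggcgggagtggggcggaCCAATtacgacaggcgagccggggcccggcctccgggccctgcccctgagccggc
Lss (chr10:76531355-76531604, plus strand): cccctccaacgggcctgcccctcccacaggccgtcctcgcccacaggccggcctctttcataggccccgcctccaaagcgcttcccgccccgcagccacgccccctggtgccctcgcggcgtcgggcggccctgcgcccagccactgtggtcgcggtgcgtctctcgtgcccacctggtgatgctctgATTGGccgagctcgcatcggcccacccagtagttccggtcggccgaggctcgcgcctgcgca
Ctsd (chr7:142387828-142388077, minus strand): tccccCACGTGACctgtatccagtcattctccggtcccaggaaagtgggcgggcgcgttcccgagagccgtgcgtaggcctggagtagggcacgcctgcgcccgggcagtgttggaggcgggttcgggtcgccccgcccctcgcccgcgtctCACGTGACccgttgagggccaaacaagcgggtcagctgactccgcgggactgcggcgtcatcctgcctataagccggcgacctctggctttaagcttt

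Genes of the mitochondrial genome were higher as a group. Of its 13 protein-coding genes 12 were tested (mt-Atp8 had too few counts) and 7 were higher at p under 0.01, and over the whole mitochondrial chromosome it was 11 of 18 genes (61.1%). mt-Nd6, a subunit of respiratory complex I, ran from 266.2 to 446.4 CPM in WT and from 374.0 to 700.6 CPM in Tg2576 mice and rose by 0.63 (adjusted p = 0.0383). mt-Co1, the core subunit of complex IV, was higher by 0.31 (adjusted p = 0.177) at 5890 to 10410 CPM. Other members are uncertain. mt-Atp6 had a median of 2.59 CPM in WT mice and shares its sequence with nuclear copies, of which several were also at p under 0.01, and reads that map to several places are left out of these counts. With an offset for GC content 3 members of the list had p under 0.01.

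Of the 12 genes that fell, the rule for named genes took 5, among them Dlg3, which belongs to the postsynaptic scaffold list. Rgs8, a regulator of G protein signalling, ran from 126.0 to 144.8 CPM (median 136) in WT and from 103.5 to 120.4 CPM (median 111) in Tg2576 mice, without overlap, and fell by 0.29 on the log2 scale (SE 0.0531, adjusted p = 0.0383). Ephb2, an ephrin receptor of excitatory synapses, fell by 0.44 (SE 0.0835, adjusted p = 0.0383). AI464131 and Tnks1bp1 fell by 0.36 (adjusted p = 0.0197) and 0.32 (adjusted p = 0.0383). Named after their values were seen, Camkk2, a calcium-dependent kinase, Slc8a2, a sodium-calcium exchanger, and Dusp4, a phosphatase of the MAP kinases, fell by 0.32, 0.34 and 0.54. Also named after their values were seen, Klhl29, Sipa1l2, Dpf3 and Igsf3, fell by 0.29, 0.35, 0.75 and 0.35.

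Postsynaptic scaffold genes build the protein mesh under excitatory synapses. Of 17, 7 were lower at p under 0.01 and 15 differences were negative (median -0.19). Dlg3, the scaffold SAP102, was the member that fell at the adjusted threshold. It ran from 239.6 to 277.1 CPM in WT and from 210.7 to 231.8 CPM in Tg2576 mice, without overlap, a fall of 0.23 on the log2 scale (fitted value -0.23, SE 0.0481, adjusted p = 0.0492). Shank3 and Camk2a, a scaffold and the kinase most abundant at these synapses, differed by -0.30 (adjusted p = 0.132) and -0.23 (adjusted p = 0.208). This count depended on the processing. It was 3 without TMM scaling, 3 with an offset for GC content, and 2 to 6 with 1 mouse left out, below 7 in every such fit. Of 19 genes of synaptic vesicles 1, and of 20 glutamate receptor genes 1, was lower at p under 0.01, beside 1.57% of all genes tested.

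Markers of other cell types were read beside these groups. Of all genes tested, 2.3% were higher and 1.57% lower at p under 0.01, so a single member is not read as a change of its list. None of the 12 choroid plexus genes had p under 0.01 in edgeR, though all 12 differences were positive (median 0.53, with -0.16 under vehicle and 1.27 under DHA). None of 12 meningeal genes did either, with a median of 0.65 and 12 positive. Dentate granule cell markers had 2 of 8 lower at p under 0.01, among them Lct (-0.72, adjusted p = 0.184). Of the CA1 markers 1 of 3 was lower at p under 0.01 (Wfs1, -0.24, adjusted p = 0.158). Single markers of the neocortex (1 of 7, Fezf2, 0.23), endothelium (1 of 12, Slco1a4, 0.35) and interneurons (1 of 15, Vip, 0.31) were higher at p under 0.01, and none of these passed the adjusted threshold. Markers of mature oligodendrocytes (0 of 10), oligodendrocyte precursors (0 of 10), CA3 (0 of 4), striatum (0 of 8), thalamus (0 of 7), subiculum (0 of 3), layer 6b and claustrum (0 of 6), immature neurons (0 of 5), ependyma (0 of 5) and blood (0 of 5) had none at p under 0.01. The part of these differences in the genotype calls was not tested.

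The genotype effect was then fitted in the vehicle mice and in the DHA mice, which share no animal. All 46 called genes had the same direction in both sets. Of these, 44 had p under 0.01 under vehicle and 35 under DHA, where 3.09% and 1.82% of all genes did. The calls themselves used both sets of mice. The next shares took calls from 1 set and looked at them in the other. With the spread estimated over all mice, the 2 sets of p values are not independent. Of 257 genes higher at p under 0.01 under vehicle, 88 (34.2%) were higher at p under 0.05 under DHA, against 4.06% of all genes. Of 322 genes lower under vehicle, 31 (9.63%) were lower under DHA, against 2.95%. In the reverse order the shares were 38.6% for higher genes, against 5.36%, and 16.2% for lower genes, against 5.59%. In neither set alone did many genes pass the adjusted threshold, with 0 under vehicle (beside 2048 at p under 0.05) and 1 under DHA (0.00535%) in edgeR. Among the 46, the interaction had p under 0.05 for 2 genes, beside 5.23% of all genes tested. It had an adjusted p under 0.05 for 0 genes. These were Man2b1, which differed by 0.25 under vehicle and 0.55 under DHA, and Dpf3, a chromatin reader named after its values were seen, which differed by -1.10 and -0.34.

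**Figure D3:**
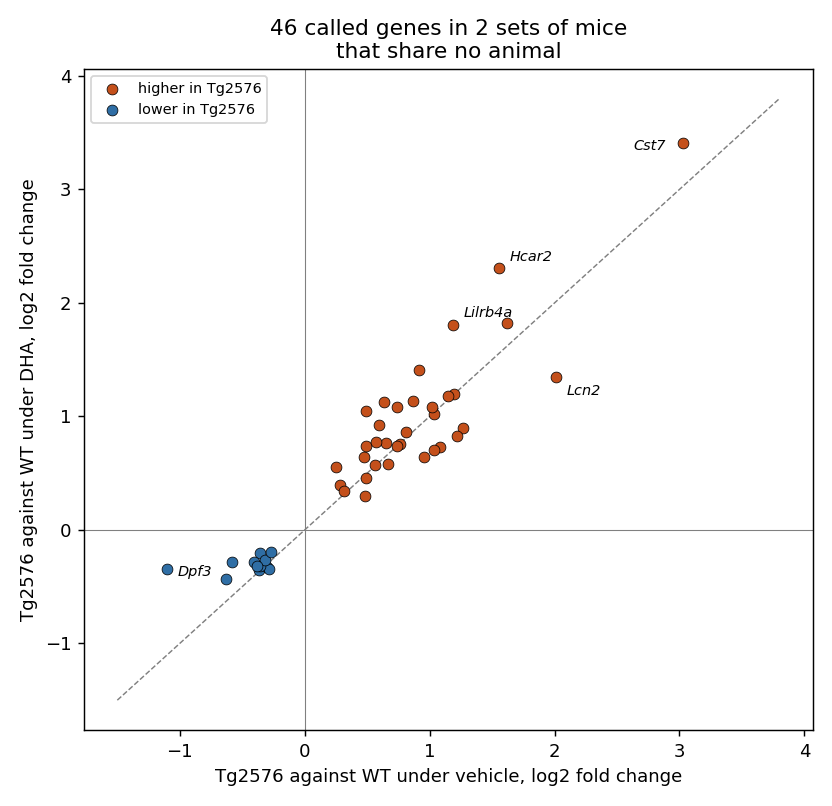
Log2 fold change of Tg2576 against WT under vehicle (horizontal axis) and under DHA (vertical axis) for the 46 called genes; the dashed line marks equal values. The 34 genes that rose are positive on both axes and the 12 that fell are negative on both, with Cst7 at 3.03 and 3.41 and Dpf3 at -1.10 and -0.34.

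Calls followed the base composition and length of genes. Among the 3744 genes of lowest GC content (28.6% to 43.9%), 4.46% were higher and 0.294% lower at p under 0.01. Among the 3737 genes of highest GC content (55.4% to 78.3%), 1.58% were higher and 2.81% lower. The median GC content was 46.7% for genes higher at p under 0.01 and 53.9% for genes lower, beside 49.7% over all genes. By summed exon length, 0.508% of the shortest and 2.83% of the longest genes were lower. With an offset for GC content 31 genes passed the adjusted threshold and 26 of the 46 were among them.

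**Figure D4:**
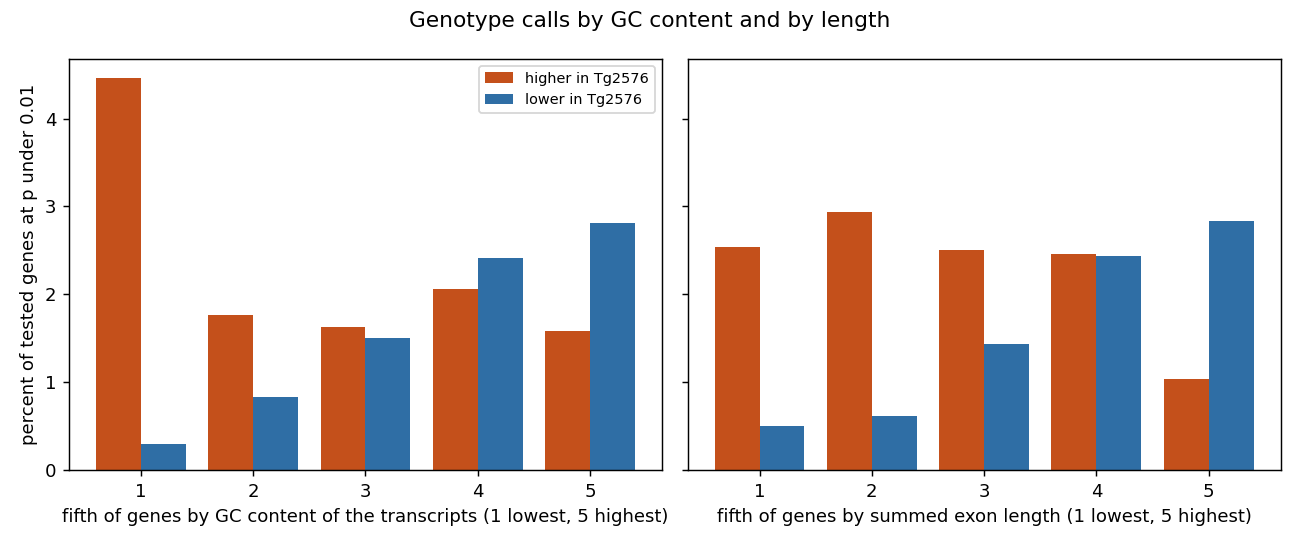
Percent of tested genes at p under 0.01 (vertical axis) that were higher or lower in Tg2576 mice (bars), in 5 equal bins of GC content (left) and of summed exon length (right). Lower calls go from 0.294% to 2.81% across the GC bins and from 0.508% to 2.83% across the length bins.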

How the data were processed

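The deposited values are raw read counts per gene of 1 library per mouse. Per the labels the authors used FastQC 0.11.8, STAR 2.6.1c and featureCounts 1.6.0 on GRCm38; the file headers show no strand or multi-mapping option, so antisense and overlapping genes are uncertain. The paper and the labels differ on the library kit. Nothing says whether any mice share a litter or cage.

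Counts were fitted with edgeR 4.0.16 in R 4.3.3 (limma 3.58.1; filterByExpr minimum 10, TMM, robust dispersions; treatment + genotype; two-sided). A fit with 1 coefficient per group gave the effects under vehicle, under DHA and their interaction. The common coefficient of variation was 20%. Log2 CPM used a prior count of 2. Symbols came from GENCODE M21 and were found for 18690 of the 18708 genes tested.

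Members, 36 gene lists and tests were chosen with earlier results of these data known. Named genes are App and Prnp, the 25 lowest p past the adjusted threshold, and up to 4 per list; further members are named as examples after their values were seen. A few that the rule names are not reported here. The lists given the most room, the motifs and 2 alternatives (the choroid plexus covariate, and 2 WT mice left out together) were also chosen after values were seen. The fit was tested on simulated data. Other tools were DESeq2 1.42.0, sva 3.50.0, Python 3.11.15 and matplotlib 3.10.9.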

Additional observations from a re-analysis of the deposited data

Results flagged for a closer look

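Of 304 sets of values (1 gene or list in the mice of 1 genotype), 16 held a mouse that stood apart from the others by Dixon's criterion, which chance meets in about 1 of 20 sets. WT DHA replicate 1 was the low mouse in 6 of them. It stood at 1.56 CPM for Ptprc (others 3.04 to 4.08), 19 CPM for Igsf3 (21.9 to 24.5), 0.868 CPM for C3ar1 (1.83 to 2.7), 2.99 CPM for AU020206 (5.02 to 7.14), 4.17 CPM for Ifitm3 (8.22 to 12) and 0 CPM for Ccl3 (0.279 to 1.02). WT vehicle replicate 2 was low for Coch at 1.24 CPM (2.85 to 5.13) and for Tcf7l2 at 2.76 CPM (3.82 to 4.74). WT DHA replicate 4 was low for Lilrb4a at 0.0965 CPM (0.334 to 0.813). WT DHA replicate 2 was high for H2-K1 at 60.2 CPM (17.9 to 31) and for the summed antigen presentation genes at 328 CPM (158 to 216). WT vehicle replicate 1 was high for the summed homeostatic astrocyte genes at 7540 CPM (6210 to 6560).

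Among Tg2576 mice, DHA replicate 2 was low for AU020206 at 7.11 CPM (9.62 to 11), vehicle replicate 1 was low for Fdft1 at 90.1 CPM (115 to 133), vehicle replicate 4 was high for Coch at 7.49 CPM (3.88 to 5.13) and vehicle replicate 2 was high for the summed immediate early genes at 1610 CPM (786 to 1030). Without WT DHA replicate 1, 10 genes passed the adjusted threshold; the part of these single values in the genotype calls was otherwise not tested.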

How the results depend on the processing

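All of the 46 genes that were tested kept their direction in each setting run. They kept p under 0.01 except in the comparisons under vehicle (44) and under DHA (35). Their adjusted calls were less stable. The number of genes past the adjusted threshold was 362 with DESeq2, 79 without TMM, 78 with at least 10 counts in every mouse, 87 with genotype alone, 93 with a length offset, 0 in vehicle mice, 1 in DHA mice, 5 with the choroid plexus covariate and 5 without WT DHA replicate 1 and WT vehicle replicate 2, a pair picked by their values. It was 5 to 100 with 1 mouse left out (5 without Tg2576 vehicle replicate 3 or WT vehicle replicate 1, 100 without Tg2576 vehicle replicate 1). The number at p under 0.01 was 340 in DHA mice, 422 without that pair and 515 to 887 with 1 mouse left out. Of these calls 59.5% were higher, 73.3% without TMM and 50% without a filter, and the median of all genes was 0.01 and 0.03 with and without TMM.

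List counts at p under 0.01 in vehicle mice and in DHA mice were 7 and 8 for plaque-associated microglia, 3 and 6 for myeloid genes, 6 and 6 for lysosomes, 5 and 4 for cholesterol synthesis, 3 and 1 for postsynaptic scaffolds and 3 and 3 for mitochondrial genes; they were 3 and 6 for complement and 8 and 4 for reactive astrocytes. Lysosomes had 7 with the covariate and 7 without the pair. Postsynaptic scaffolds had 3 without TMM, with the GC offset or with the covariate, and 2 without the pair. Mitochondrial genes had 4 with the length offset and 3 with the GC offset. With 1 mouse left out the ranges were 9 to 17 for plaque-associated microglia, 8 to 11 for myeloid genes, 6 to 9 for complement, 10 to 12 for reactive astrocytes, 8 to 16 for lysosomes, 7 to 9 for cholesterol synthesis, 4 to 8 for mitochondrial genes and 2 to 6 for postsynaptic scaffolds. Of the named genes, Enpp2 changed sign in vehicle mice (-0.19) and with the covariate (-0.0365), and Nxph4 in DHA mice (-0.018). The cause of these shifts was not tested, and smaller samples are part of the single-treatment comparisons.

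Replicate numbers showed no consistent pairing of the mice. Over 21 same-numbered pairs the correlation of deviations ran from -0.272 to 0.227 and 4 were above 0.1. These correlations cannot exclude a shared litter, cage or batch. With the replicate block 730 genes had p under 0.01, 34 passed the adjusted threshold (32 higher, 2 lower), 19 of the 46 were among these, and 4 postsynaptic genes were lower. Genes near or under 1 CPM, such as Cst7 in WT mice, rest on few reads (12 in the lowest mouse). Hcar2 had 2 to 48 reads over the mice, Lilrb4a 2 to 52 and Il1b 4 to 24.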
